A study of Mus musculus with 9 samples.

Results

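Genes of the cell cycle and of DNA replication were measured in the mouse cerebellum, as 36 named genes of 53924 named rows. They were found by their symbols in the estimated-count and TPM (transcript abundance scaled to length and library size) files of every library. The genes are 15 of S phase, 19 of mitosis and 2 D-type cyclins. The 9 bulk RNA libraries of total RNA from cerebellum form 3 groups of 3. The control group had saline. The 3AP group had 3-acetylpyridine (3-AP), a nicotinamide analogue that kills neurons of the inferior olive and so strips Purkinje cells of their climbing fibres. The PLX3AP group had 3-AP together with PLX3397, an inhibitor of the CSF1 receptor used to deplete microglia. No strain, age, sex, dose or time after injection is given in the sources used here, and PLX3397 without 3-AP was not analysed here. Whether each library came from its own animal is not stated in the labels, so p-values measure the spread between libraries, which may be technical.

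In a dividing cell, D-type and E-type cyclins drive the step from G1 into S phase by releasing E2F transcription factors from the retinoblastoma proteins. In S phase the MCM helicase opens the DNA, PCNA clamps the polymerases to it, and ribonucleotide reductase and thymidylate synthase supply the building blocks. Mitosis needs cyclin B with CDK1, the Aurora and Polo kinases, kinesin motors and the spindle checkpoint, and ends when CDC20 turns on the anaphase-promoting complex. In the adult cerebellum nearly all neurons have left the cycle, and the cells known to divide are mostly oligodendrocyte precursors, microglia and vascular cells.

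In 3AP cerebellum 2 of the 30 genes with enough counts to test rose, the replication helicase subunit Mcm7 (1.38-fold) and the anaphase activator Cdc20 (2.36-fold). That is 6.67%, near the 4.93% of all tested genes that passed in either direction. Between PLX3AP and 3AP, and between PLX3AP and control, none passed the test. Ki-67 (Mki67) and topoisomerase II alpha (Top2a), the usual labels of dividing cells, were read at 2 to 15 and 5 to 29 counts a library and passed in no comparison. Libraries held 18452256 to 22358447 estimated counts. In bulk tissue a change in the number of dividing cells and a change in RNA per cell cannot be told apart.

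By level the S-phase genes lay mostly above the mitotic genes, but the sets overlapped, with Cdc20 above Mcm3 (3.52 TPM), for example. Mean TPM over the 9 libraries was above 1 in 14 of the 15 S-phase genes and in 7 of the 19 mitotic genes. Pcna, the polymerase clamp, was highest at 78.5 TPM, with a range of 71.9 to 83.4 over the libraries. Mcm7 followed at 21.4 TPM, then Ccnd1 (cyclin D1) at 18.5 and Rrm1, the large subunit of ribonucleotide reductase, at 17.2. Their ranges over the libraries overlapped (14.9 to 28.8, 16.0 to 20.0 and 14.9 to 23.3 TPM), so the order of these 3 does not hold beyond their spread. Among mitotic genes Cdc20 was highest at 4.85 TPM, ahead of Nusap1, a microtubule-bundling spindle protein, at 1.86 and the checkpoint kinase Bub1b at 1.81. The range of Nusap1 (1.55 to 2.55 TPM) lay inside that of Bub1b (0.79 to 3.08 TPM). At the low end, Mki67 had a mean of 0.07 TPM and the kinetochore protein Cenpf 0.05 TPM. In 14 of the 36 genes no library reached 30 counts, and 13 of these 14 are mitotic, so the fold changes of most mitotic genes rest on few counts.

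**Figure D1:**
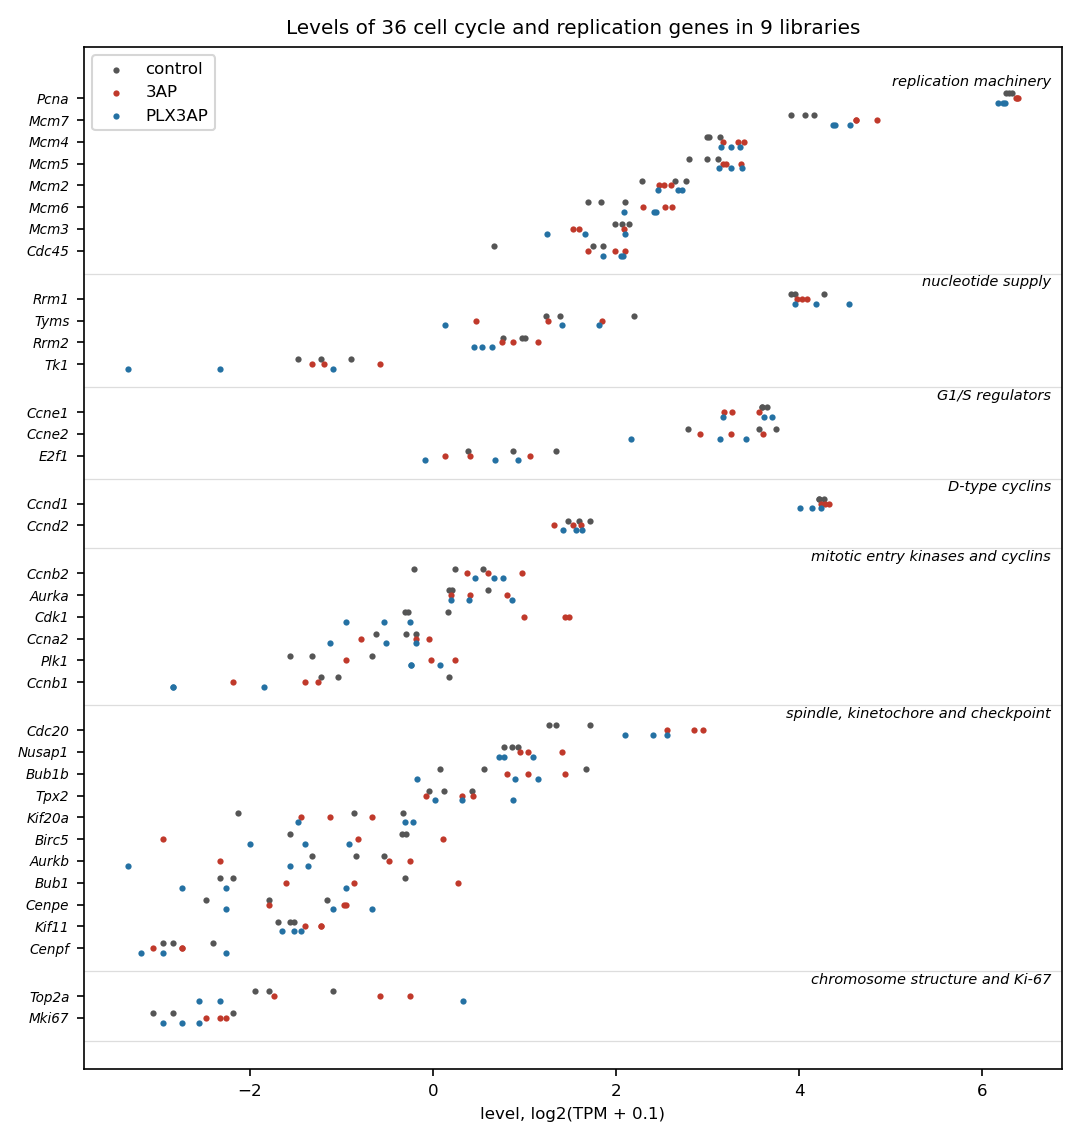
Level of each of the 36 genes in each of the 9 libraries, as log2(TPM + 0.1) on the horizontal axis, with genes in rows grouped by role and the libraries coloured by group (1 point a library). Pcna lies at the top, and most mitotic genes lie below most S-phase genes, at under 1 TPM.

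The promoter windows of 4 of the genes are shown here because Mcm7 and Mcm6 are the 2 MCM subunits, and Cdc20 and Cdk1 the mitotic genes, to which the comparisons return. Each is the RefSeq window of GRCm38.p6 from 250 bases before to 50 bases after the annotated start, written 5′ to 3′ on the strand of the gene. Capitals mark exact matches on either strand to 3 kinds of motif: E2F words (TTTCCCGC, TTTGGCGC, TTTCGCGC or TTTGCCGC), cell cycle homology region words called CHR (TTTGAA or TTCGAA), and CCAAT. E2F words are known from S-phase promoters, and CHR with CCAAT from mitotic promoters bound by the DREAM and MMB complexes. The windows are chr5:138171834-138172133 (minus strand) for Mcm7, chr1:128359656-128359955 (minus strand) for Mcm6, chr4:118437294-118437593 (minus strand) for Cdc20 and chr10:69352863-69353162 (minus strand) for Cdk1.
Mcm7: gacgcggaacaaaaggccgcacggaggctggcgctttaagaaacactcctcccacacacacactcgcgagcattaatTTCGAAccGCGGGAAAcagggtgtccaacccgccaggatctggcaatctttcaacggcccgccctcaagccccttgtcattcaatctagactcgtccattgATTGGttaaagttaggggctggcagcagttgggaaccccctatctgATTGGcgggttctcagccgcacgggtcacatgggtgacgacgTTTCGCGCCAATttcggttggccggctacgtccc
Mcm6: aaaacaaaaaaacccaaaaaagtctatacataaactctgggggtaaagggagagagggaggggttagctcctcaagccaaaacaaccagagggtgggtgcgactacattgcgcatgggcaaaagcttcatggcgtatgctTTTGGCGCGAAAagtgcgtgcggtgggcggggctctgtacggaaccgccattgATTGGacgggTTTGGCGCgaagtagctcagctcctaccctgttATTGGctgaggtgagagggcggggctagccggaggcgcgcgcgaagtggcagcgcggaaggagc
Cdc20: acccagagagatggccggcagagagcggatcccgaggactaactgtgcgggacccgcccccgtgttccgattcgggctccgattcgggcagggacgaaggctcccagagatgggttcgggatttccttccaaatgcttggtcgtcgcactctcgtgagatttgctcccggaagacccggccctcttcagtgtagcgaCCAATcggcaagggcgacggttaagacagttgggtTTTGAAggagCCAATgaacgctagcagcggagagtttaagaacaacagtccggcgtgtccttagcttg
Cdk1: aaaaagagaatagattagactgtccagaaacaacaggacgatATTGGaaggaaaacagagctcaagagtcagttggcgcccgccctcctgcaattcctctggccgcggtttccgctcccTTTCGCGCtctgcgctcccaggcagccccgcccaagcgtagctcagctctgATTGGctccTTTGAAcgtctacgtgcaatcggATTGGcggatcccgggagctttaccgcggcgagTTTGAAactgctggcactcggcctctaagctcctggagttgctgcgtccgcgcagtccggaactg

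Mcm7 held 2 E2F words, 1 CHR word and 3 CCAAT words, with its second E2F word (TTTCGCGC, 17 bases past the start) running into a CCAAT. Mcm6 held 3 E2F words, of which 2 overlap on opposite strands, and no CHR word. Cdc20 held 1 CHR word 18 bases before the start between 2 CCAAT words, and no E2F word. Cdk1 held 1 E2F word, 2 CHR words and 3 CCAAT words. The table has windows for 28 of the 36 genes. An E2F word was in 4 of 13 S-phase windows (30.77%) and 1 of 15 mitotic windows (6.67%), against 2.26% of all 32851 windows. A CHR word was in 3 of 13 S-phase windows (23.08%) and 11 of 15 mitotic windows (73.33%), against 19.23% of all. CCAAT was in 69.23% of S-phase, 86.67% of mitotic and 37.41% of all windows. All 11 mitotic windows with a CHR word also held CCAAT, a pair found in 7.52% of all windows. A match here describes letters, not a bound site.

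**Figure D2:**
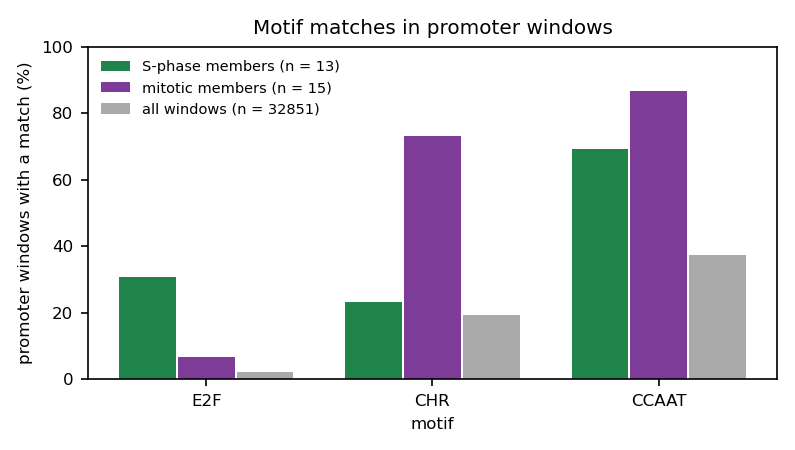
Share of promoter windows (percent, vertical axis) that hold at least 1 exact match to the E2F, CHR or CCAAT words (horizontal axis), for S-phase genes (13 windows), mitotic genes (15 windows) and all windows (32851). CHR matches were in 73.33% of mitotic and 23.08% of S-phase windows.

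The first comparison asks what 3-AP alone did. Filtering on low counts left 30 of the 36 genes among 16634 tested, 14 of S phase, 14 of mitosis and both D-type cyclins. With edgeR's quasi-likelihood test and Benjamini-Hochberg adjustment over all tested genes, 2 of the 30 were higher in 3AP at an adjusted p under 0.05 and none lower, where 3.75% of all tested genes were higher and 1.18% lower. At an unadjusted p under 0.05 there were 6 higher (Cdc20, Mcm7, Mcm6, Mcm5, Plk1 and Cdk1) and 2 lower (Ccne1 and Ccnd2), where 17.0% of all tested genes fell in either direction. In CPM, all 3AP libraries lay above all control libraries in 8 genes and below in 3, where 24.7% of tested genes did either (13.6% above and 11.0% below). The median log2 fold change was 0.20 over the 30 genes and 0.00 over all tested genes.

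Of the MCM helicase subunits, Mcm7 rose. Its normalised level in CPM (counts scaled to library size by TMM) was 21.5, 18.3 and 20.8 in control, 27.9, 29.2 and 26.2 in 3AP, and 23.3, 23.6 and 24.5 in PLX3AP. The 3 groups did not overlap, with PLX3AP between the others. The fold change in 3AP was 1.38 (log2 0.46, SE 0.09, edgeR adjusted p = 0.012, n = 3 a group), and the adjusted p was 0.064 when control replicate 2 was left out, and 0.054 and 0.061 when 3AP replicate 1 or 2 was. Mcm7 lies at chr5:138164583-138172422 on the minus strand (GENCODE M21, GRCm38). Its exons share 321 bases with Ap4m1 and 64 with Cops6 on the opposite strand, and 84 and 88 bases with Mir25 and Mir93 on its own strand. The sources used here do not give the strand setting of the counting. The 2 opposite-strand neighbours did not pass the edgeR test, with Ap4m1 at a log2 fold change of 0.29 (adjusted p = 0.162) and Cops6 at -0.14 (adjusted p = 0.451).

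Mcm6, another subunit of the same helicase ring, did not pass. It had 5.40, 7.19 and 6.43 CPM in control, 10.6, 9.64 and 8.05 in 3AP, and 7.69, 9.17 and 6.54 in PLX3AP. All 3AP libraries lay above the control libraries, at a log2 difference of 0.57 (SE 0.17, edgeR adjusted p = 0.0925), and PLX3AP overlapped both. Mcm5 differed from control by 0.26 in log2 (SE 0.12, adjusted p = 0.293) and Mcm4 and Mcm3 by 0.19 each, while Mcm2 was at -0.06. On TPM Mcm3 turned direction, with means of 4.09 in control, 3.29 in 3AP and 3.18 in PLX3AP. Cdc45, the helicase partner of the MCM ring, was at 0.45 (SE 0.28, adjusted p = 0.461), with control replicate 2 the lowest library at 1.75 CPM against 3.73 and 3.90 in the other control libraries. Pcna was at 0.03 in log2 (SE 0.08). Of the 8 replication machinery genes 7 had an edgeR log2 fold change above 0, where 8359 of all 16634 tested genes did, with a median of 0.23.

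The genes of nucleotide supply and of G1/S control lay on the other side of 0 in all 6 tested cases by edgeR, none past the test, though on log2(TPM + 0.1) Rrm2 was at 0.01. Over all 16634 tested genes 8275 were below 0. Rrm1 had 40.2, 36.1 and 37.7 CPM in control, 35.4, 38.0 and 37.4 in 3AP, and 37.6, 43.3 and 39.9 in PLX3AP, overlapping throughout. Rrm2, the small subunit of ribonucleotide reductase that is made in S phase, had 2.31, 1.95 and 2.44 CPM in control, 2.11, 1.70 and 2.23 in 3AP, and 1.59, 1.63 and 1.67 in PLX3AP. The PLX3AP libraries were the lowest for Rrm2, at -0.45 in log2 against control (SE 0.24, adjusted p = 0.572). Ccne1 (cyclin E1), which with CDK2 starts S phase, had 13.0, 12.6 and 14.0 CPM in control, 10.4, 10.03 and 9.60 in 3AP, and 9.83, 11.1 and 11.0 in PLX3AP. Every 3-AP-treated library, with or without PLX3397, lay below every control library for Ccne1 in CPM. On TPM this held for 3AP only, since PLX3AP had 8.87, 12.97 and 12.2 TPM against 11.9 to 12.5 in control. The log2 difference was -0.40 for 3AP (SE 0.11, edgeR adjusted p = 0.0721) and -0.31 for PLX3AP (SE 0.11, adjusted p = 0.437), and neither passed. Its sister Ccne2 ranged more widely, from 11.4 to 16.6 CPM in control, 10.9 to 15.7 in 3AP and 6.87 to 15.2 in PLX3AP. E2f1, a transcription factor of S-phase genes, was at -0.42 (SE 0.36, adjusted p = 0.629) in 3AP, and Tyms, thymidylate synthase, at -0.18 (SE 0.22, adjusted p = 0.740).

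The D-type cyclins link growth signals to the cycle and are also present in cells that do not divide. Ccnd1 had 39.9, 40.8 and 39.9 CPM in control, 39.9, 38.6 and 42.5 in 3AP, and 36.1, 36.9 and 37.4 in PLX3AP. Its 3AP and control libraries overlapped, with an edgeR log2 difference of 0.00 (SE 0.07). In CPM the PLX3AP libraries lay below both other groups, by 0.13 in log2 (edgeR adjusted p = 0.539 against 3AP and 0.601 against control). On TPM they overlapped control, at up to 18.7 against 18.5 to 19.3. Ccnd1 shares 1100 exon bases with LTO1 on the opposite strand. Ccnd2 had 8.84, 8.99 and 9.65 CPM in control, 8.15, 6.62 and 6.98 in 3AP, and 9.23, 7.50 and 9.16 in PLX3AP. The 3AP libraries lay below control for Ccnd2 in CPM, at -0.34 in log2 (SE 0.14, edgeR adjusted p = 0.251). On TPM they overlapped, at 2.40 to 2.98 in 3AP and 2.68 to 3.18 in control.

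Among mitotic genes Cdc20 rose. It had 2.21, 2.36 and 3.31 CPM in control, 5.55, 6.62 and 6.45 in 3AP, and 4.17, 4.97 and 5.20 in PLX3AP, from 45 to 136 counts a library. No 2 groups overlapped in CPM, and again PLX3AP lay between the others. On TPM the highest PLX3AP library and the lowest 3AP library were level at 5.77. The 3AP fold change was 2.36 (log2 1.24, SE 0.20, 95% interval 0.80 to 1.68, edgeR adjusted p = 0.0030), and Cdc20 was called under each of the 18 other settings run. It lies at chr4:118432901-118437352 on the minus strand (GENCODE M21, GRCm38) and shares 53 exon bases with Elovl1 on the opposite strand, which was at 0.12 in log2 (edgeR adjusted p = 0.711).

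Plk1, the Polo-like kinase of mitotic entry, was read at 6, 8 and 8 counts in control, 22, 26 and 10.2 in 3AP, and 22, 20 and 18 in PLX3AP. In CPM these were 0.295, 0.411 and 0.390, then 1.08, 1.27 and 0.485, then 1.21, 0.904 and 0.859, so that both treated groups lay above control, with 3AP replicate 3 close to it. The 3AP difference was 1.36 in log2 (SE 0.45, edgeR adjusted p = 0.122, and 0.0445 without 3AP replicate 3). On TPM 3AP replicate 3 (0.42) lay below control replicate 2 (0.53). There limma on log2(TPM + 0.1) put the 3AP difference at 0.94 (adjusted p = 0.285). Plk1 shares 156 exon bases with Gm44985 on the opposite strand. Cdk1, the kinase that drives mitosis, had 9, 3 and 10 counts in control, 16, 12 and 21 in 3AP, and 6, 8 and 3 in PLX3AP. The 3AP libraries were the highest for Cdk1, at 1.12 in log2 against control (SE 0.51, edgeR adjusted p = 0.287). On TPM the same gene stood further apart, at 1.02, 0.71 and 0.73 in control, 2.70, 2.62 and 1.89 in 3AP, and 0.42, 0.59 and 0.74 in PLX3AP. There limma on log2(TPM + 0.1) called it at 1.44 (adjusted p = 0.021). The same limma fit with no filter did not call it (adjusted p = 0.0557), and 2 of 18 alternatives did. Only in 3AP did every library reach the filter's minimum of 10 counts for Cdk1. For Cdk1 the counts behind 1 TPM ran from 4.05 to 14.3 between libraries, against 17.5 to 21.3 for Cdc20, and the cause was not tested.

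Top2a, which untangles sister chromatids, had 10, 11 and 10 counts in control, 17, 29 and 11 in 3AP, and 5, 5 and 17 in PLX3AP. Mki67 had 15, 2 and 5 counts in control, 10, 12 and 14 in 3AP, and 6, 9 and 4 in PLX3AP. Both groups of counts overlapped between control and 3AP, at log2 differences of 0.84 (SE 0.52, edgeR adjusted p = 0.466) for Top2a and 0.68 (95% interval -0.62 to 1.98, adjusted p = 0.637) for Mki67. For Mki67 that interval takes in both lower and higher levels, and control alone ran from 2 to 15 counts. Nusap1 had 4.86, 4.67 and 5.12 CPM in control, 5.45, 4.97 and 7.08 in 3AP, and 5.93, 4.38 and 4.25 in PLX3AP, and was at 0.26 in log2 in 3AP (SE 0.19, adjusted p = 0.572). Its groups overlapped. The other mitotic genes tested ran from -0.40 (the kinesin Kif20a, at 0.03 on log2(TPM + 0.1)) to 0.48 (Bub1b) in log2, with none past the test.

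**Figure D3:**
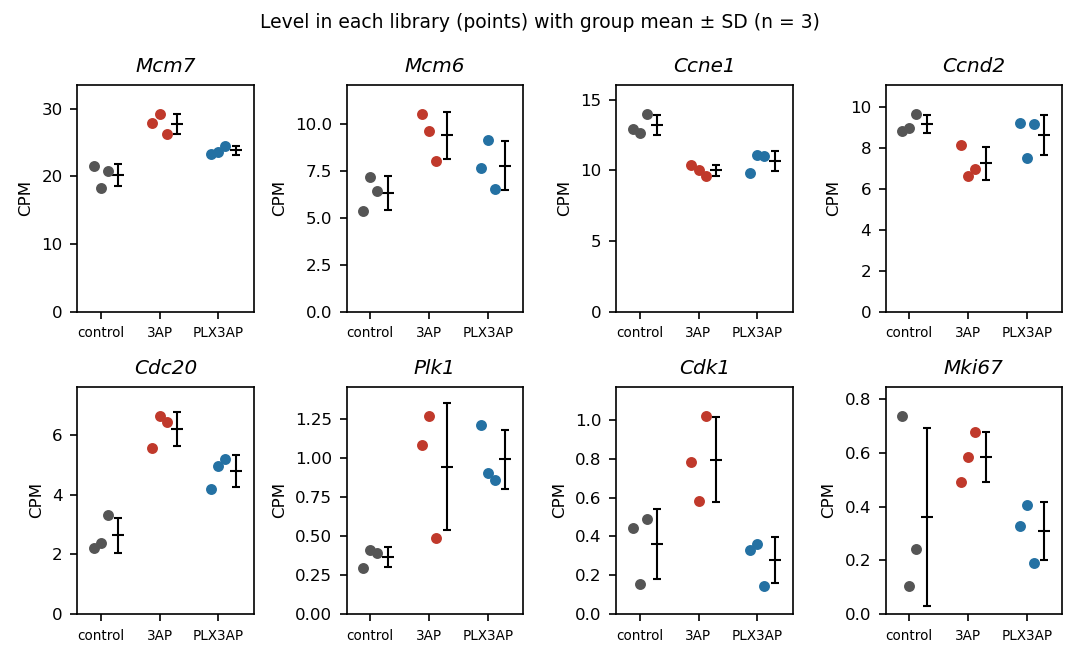
Normalised level in CPM (vertical axis, from 0) of 8 genes in the control, 3AP and PLX3AP groups. Points are libraries, and bars the mean ± SD (n = 3). For Mcm7 and Cdc20 the PLX3AP libraries lie between control and 3AP, whereas the Mki67 libraries of control span those of 3AP.

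The second comparison, PLX3AP against 3AP, asks what differed when PLX3397 was given with 3-AP. It shares the 3AP libraries with the first. None of the 30 tested genes passed with edgeR's quasi-likelihood test, where 3.73% of all tested genes did (0.577% higher and 3.16% lower). At an unadjusted p under 0.05 there were 3 (Mcm3, Mcm7 and Cdk1), all lower, where 12.1% of all tested genes fell in either direction. DESeq2 and limma-voom also called none. In CPM, all PLX3AP libraries lay below all 3AP libraries in 8 genes (Mcm7, Cdc20, Cdk1, Kif11, Mki67, Pcna, Rrm2 and Ccnd1) and above in none, where 16.9% of tested genes did either (9.22% below and 7.66% above). Of the 30 log2 fold changes 22 were below 0, where 8610 of all 16634 were, with a median of -0.14 beside -0.01 over all tested genes.

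The 2 genes that rose in 3AP were lower in PLX3AP than in 3AP by less than the test required. The log2 difference was -0.22 for Mcm7 (SE 0.09, edgeR adjusted p = 0.343) and -0.37 for Cdc20 (SE 0.19, adjusted p = 0.496). Cdk1 differed most, at -1.50 (SE 0.53, adjusted p = 0.207), and limma on log2(TPM + 0.1) called it at -1.88 (adjusted p = 0.0045). Top2a was at -1.07 (SE 0.53, adjusted p = 0.466) and Mki67 at -0.90 (SE 0.61, adjusted p = 0.645). Plk1 was at 0.06 (SE 0.40, adjusted p = 0.967). Mcm3 was at -0.53 (SE 0.21, adjusted p = 0.280), with a PLX3AP library at 4.15 CPM level with the lowest 3AP library at 4.14. On TPM the means of Mcm3 lay closer, at 3.29 in 3AP and 3.18 in PLX3AP.

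The third comparison, PLX3AP against control, shares its libraries with the other 2. None of the 30 genes passed edgeR's test, where 0.120% of all tested genes did (0.0361% higher and 0.0842% lower), and 4 had an unadjusted p under 0.05 (Cdc20, Plk1 and Mcm7 higher, Ccne1 lower), where 9.35% of all did. Cdc20 stood at 1.82-fold (log2 0.86, SE 0.20, edgeR adjusted p = 0.207), Plk1 at 1.42 in log2 (SE 0.45, adjusted p = 0.341) and Mcm7 at 0.24 (SE 0.09, adjusted p = 0.473). In CPM, every PLX3AP library lay above every control library in these 3 genes and below in 4 (Ccne1, Ccnd1, Rrm2 and Tyms), where 14.3% of tested genes did either (7.86% above and 6.42% below). The median over the 30 genes was -0.07, beside 0.00 over all tested genes.

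**Figure D4:**
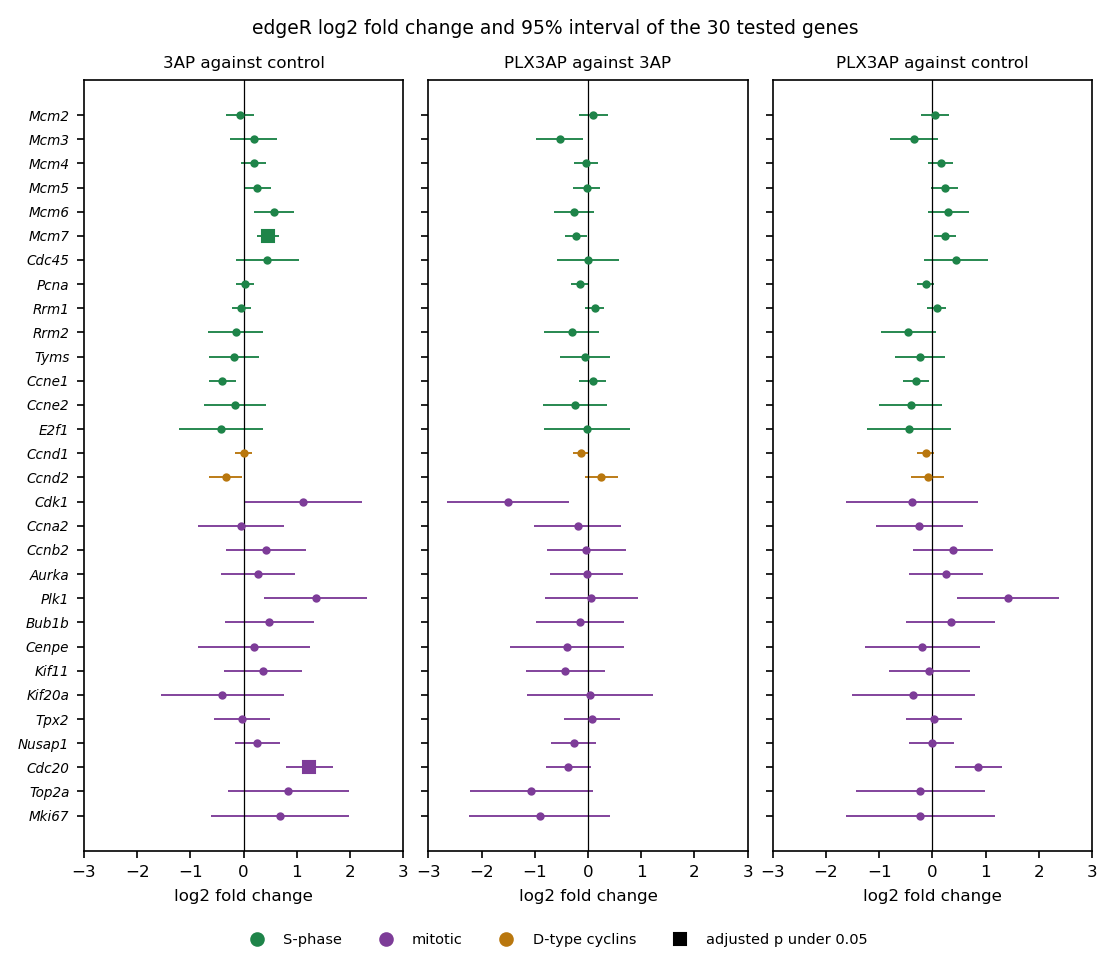
Log2 fold change (horizontal axis) with its 95% interval for the 30 tested genes in the 3 comparisons, coloured as S-phase, mitotic or D-type cyclin genes. Squares mark an adjusted p under 0.05, which Mcm7 and Cdc20 reached in 3AP against control, and the widest intervals belong to mitotic genes of few counts.

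The 6 genes too low to test are the thymidine kinase Tk1, cyclin B1 (Ccnb1), the chromosomal passenger proteins Aurkb and Birc5, the checkpoint kinase Bub1 and Cenpf. Their counts together were 37.0, 43.2 and 48.0 in control, 35.3, 45.0 and 43.0 in 3AP, and 23.0, 18.0 and 20.0 in PLX3AP. The PLX3AP libraries were lowest in this sum, and control and 3AP overlapped. Ccnb1 had 11, 6 and 14 counts in control, 3, 9 and 5 in 3AP, and 1, 3 and 1 in PLX3AP. Aurkb had 6, 7 and 10 counts in control, 16, 13 and 2 in 3AP, and 1, 0 and 6 in PLX3AP. The ratio of PLX3AP to control counts was 0.159 for Ccnb1 (exact 95% interval 0.048 to 0.412, for counting error only), and that of PLX3AP to 3AP counts was 0.227 for Aurkb (0.084 to 0.525). With no filter on low counts edgeR's adjusted p was 0.261 and 0.300 for these 2, which were chosen after their values were seen. Summed over the 3 libraries of control, 3AP and PLX3AP, Tk1 had 16, 20 and 10 counts, Birc5 16, 15.3 and 9.01, Bub1 20, 23 and 9, and Cenpf 22.3, 17 and 21.

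Set side by side, the mean summed level in 3AP was 1.09 times that of control for S-phase genes and 1.55 times for mitotic genes, although the difference in TPM was larger for S-phase genes (15.2 against 7.91). The difference between the 2 was not tested. Summed over the 15 S-phase genes the level was 182, 162 and 176 TPM in control, 190, 191 and 183 in 3AP, and 170, 186 and 173 in PLX3AP. All 3AP libraries lay above all control libraries, the lowest by 183 against 182 TPM, and PLX3AP overlapped both. That gap was not there in CPM (highest control library 221.5, lowest 3AP library 221.3) or without Pcna (101.6 against 100.04 TPM). Summed over the 19 mitotic genes it was 14.9, 13.4 and 14.9 TPM in control, 21.04, 23.2 and 22.7 in 3AP, and 16.1, 16.8 and 17.7 in PLX3AP, with no overlap between groups. Without Cdc20 the mitotic sum was 12.6, 11.0 and 11.7 TPM in control, 15.3, 16.1 and 15.1 in 3AP, and 11.9, 11.5 and 11.9 in PLX3AP, so that PLX3AP then lay within the control range. Cdk1, at 3 to 21 counts a library, gave much of that difference. Its mean was 0.82, 2.40 and 0.58 TPM in control, 3AP and PLX3AP, where the mean sum without Cdc20 was 11.8, 15.5 and 11.8. In CPM the mitotic sum was 21.4, 21.2 and 23.0 in control, 29.7, 29.9 and 29.8 in 3AP, and 27.8, 21.4 and 24.1 in PLX3AP, where PLX3AP overlapped control. Without Cdc20 it was 18.8 to 19.7 CPM in control, 23.2 to 24.2 in 3AP and 16.4 to 23.7 in PLX3AP. In that measure, unlike in TPM, PLX3AP ran from below control into the 3AP range. The S-phase sum divided by the mitotic sum, both in TPM, was 12.2, 12.1 and 11.8 in control, 9.05, 8.24 and 8.07 in 3AP, and 10.5, 11.1 and 9.78 in PLX3AP. This ratio was not taken in CPM, where the S-phase and the mitotic sums of PLX3AP each overlapped control. In CPM the S-phase sum was 214, 200 and 222 in control, 224, 221 and 222 in 3AP, and 211, 219 and 200 in PLX3AP. PLX3AP replicate 2 had a higher S-phase sum (219 against 214 CPM) and a lower mitotic sum (21.37 against 21.42) than control replicate 1. The place of PLX3AP between the other groups is thus shown for TPM only. The 6 MCM subunits summed to 48.3, 43.9 and 45.8 TPM in control, 58.2, 63.3 and 57.3 in 3AP, and 53.5, 54.9 and 55.7 in PLX3AP, without overlap. In TPM Mcm7 carried most of that difference. Without it the sum was 30.4, 29.0 and 29.1 TPM in control, 33.6, 34.5 and 32.8 in 3AP, and 29.97, 34.3 and 34.9 in PLX3AP, so that 3AP still lay above control but PLX3AP overlapped both. In CPM Mcm7 did not carry most of it. The mean MCM sum was 71.7 CPM in control and 87.3 in 3AP, and without Mcm7 51.5 and 59.5. Without Mcm7 PLX3AP (53.3 to 60.6 CPM) overlapped 3AP but lay just above control (49.7 to 53.2).

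Per gene the medians, which are descriptions with no test, were also higher for mitotic than for S-phase genes in 3AP against control. The size of that gap depended on the filter and on which genes were counted. In 3AP against control the median log2 fold change was -0.01 over 14 S-phase genes and 0.39 over 14 mitotic genes. In PLX3AP against 3AP it was -0.04 and -0.23, and in PLX3AP against control -0.04 and -0.04. These medians depend on the filter, which left out the mitotic genes too low to test. With no filter those genes were at -0.87 (Ccnb1), -0.40 (Cenpf), -0.12 (Birc5), 0.18 (Bub1) and 0.40 (Aurkb) in 3AP against control. Cdk1 and Mki67 held at least 10 counts, the filter's minimum, in every library of 3AP but of no other group. Medians with no filter are given at the end. Without the 3 G1/S regulators the S-phase median in 3AP was 0.19, so its value near 0 depends on which genes are counted. Of the 14 S-phase genes 7 were above 0 and 7 below, where 8359 of all 16634 tested genes were above.

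**Figure D5:**
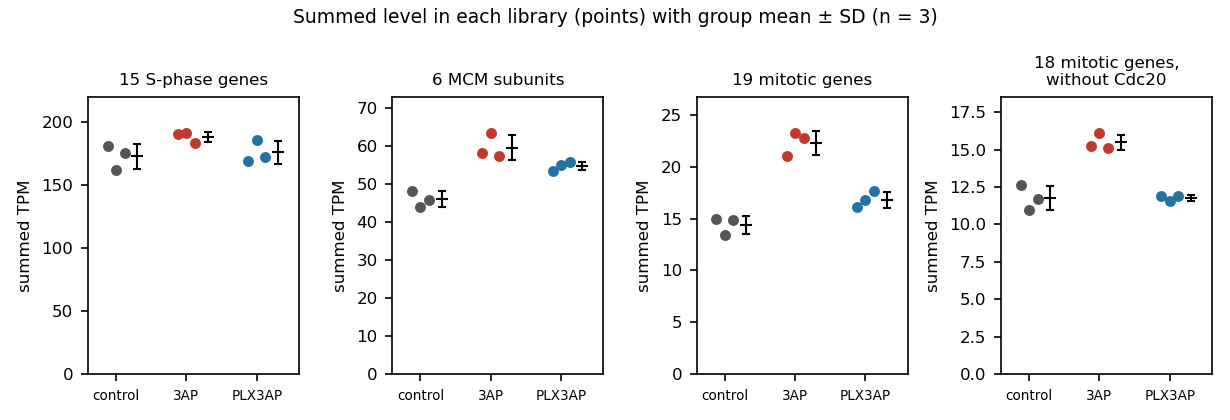
Summed level in TPM (vertical axis, from 0) of the 15 S-phase genes, the 6 MCM subunits, the 19 mitotic genes and the 18 mitotic genes without Cdc20, by group. Points are libraries, and bars the mean ± SD (n = 3). The mitotic sum is highest in the 3AP libraries, at 21.04 to 23.2 TPM against 13.4 to 14.9 in control.

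Other genes of the pathway were taken from wider lists. Of 37 tested replication genes beyond the 36, edgeR called 3 higher in 3AP than in control (8.11%, where 3.75% of all tested genes were higher) and none lower, with a median log2 fold change of 0.18. These were Lig1 (DNA ligase I), Pola2 (a subunit of polymerase alpha) and Timeless (a replication fork protection protein). Lig1 had 9.28, 12.02 and 11.3 CPM in control, 16.1, 18.4 and 16.6 in 3AP, and 14.1, 17.5 and 13.3 in PLX3AP, 1.57-fold higher in 3AP (log2 0.65, SE 0.14, edgeR adjusted p = 0.0156). Pola2 had 5.94, 6.32 and 5.85 CPM in control, 9.13, 9.84 and 8.73 in 3AP, and 6.70, 8.36 and 8.11 in PLX3AP (log2 0.61 in 3AP against control, adjusted p = 0.0247). As with Mcm7 and Cdc20, PLX3AP libraries of both genes lay above every control library, and those of Pola2 also below every 3AP library. Timeless had 6.78, 7.65 and 6.24 CPM in control, 11.6, 8.86 and 11.8 in 3AP, and 10.05, 9.13 and 8.83 in PLX3AP, at 0.64 in log2 in 3AP against control (SE 0.15, adjusted p = 0.0274). Its PLX3AP libraries also lay above every control library. Each of these 3 calls was lost with single libraries left out: Lig1 without control replicate 1 or 3AP replicate 2 (adjusted p up to 0.0862), Pola2 without any 1 control library or 3AP replicate 1 or 2 (up to 0.102), and Timeless without any 1 control library or 3AP replicate 1 or 3 (up to 0.121). The 3 limma fits on TPM also did not call Pola2 (adjusted p 0.2001 to 0.328). Of 34 tested mitotic genes beyond the 36, Anln (anillin, a cleavage furrow protein that is also found in myelin) was called higher (2.94%) and none lower, with a median of 0.12. Anln had 45.9, 37.3 and 47.1 CPM in control, 72.7, 50.7 and 69.6 in 3AP, and 52.2, 53.0 and 52.4 in PLX3AP, again with every PLX3AP library above every control library. It was at 0.57 in log2 in 3AP against control (SE 0.13, adjusted p = 0.0247), and up to an adjusted p of 0.106 without control replicate 1 or 2 or 3AP replicate 1 or 3, 0.0581 with only the 6 libraries compared and 0.0867 on TPM with no filter. Of 27 tested cell cycle regulators and inhibitors none was called in any comparison.

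In PLX3AP against 3AP the wider lists held 1 call, Uhrf1, which keeps DNA methylation through replication. It had 15, 16 and 18 counts in control, 40, 40 and 43 in 3AP, and 20, 6 and 12 in PLX3AP, 3.13-fold lower in PLX3AP than in 3AP (log2 -1.64, SE 0.41, edgeR adjusted p = 0.0457). The 3AP libraries stood apart from both other groups, though the difference from control did not pass (1.29 in log2, adjusted p = 0.0974), and the call in PLX3AP against 3AP was lost with any single library left out other than PLX3AP replicate 1 (adjusted p up to 0.173), with only the 6 libraries compared (0.0900) and on TPM with no filter (0.125). The medians of the replication, mitotic and regulator lists in that comparison were -0.17, -0.15 and -0.05. None of the 3 lists held a call in PLX3AP against control.

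Markers of cell types that can divide, or that can bring dividing cells with them, differed between the same groups. The summed CPM of 15 microglial markers was 186 to 211 in control, 386 to 473 in 3AP and 103 to 171 in PLX3AP, with 9 of 15 called higher in 3AP than in control and 10 lower in PLX3AP than in 3AP. That of 12 blood leukocyte markers was 2.21 to 5.46, 16.0 to 31.2 and 2.39 to 3.58, with 5 of 8 tested called higher in 3AP and 6 lower in PLX3AP than in 3AP, and Cd8a at 0 in control and 3AP. Endothelial markers (8) summed to 283 to 287 CPM in control, 324 to 341 in 3AP and 271 to 285 in PLX3AP, with 5 called higher and 1 lower in 3AP than in control, and 1 higher and 3 lower in PLX3AP than in 3AP. Meningeal fibroblast markers (6) summed to 101 to 117 CPM in control, 133 to 185 in 3AP and 89.6 to 105 in PLX3AP, with 1 called higher in 3AP (Dcn) and 3 lower in PLX3AP than in 3AP. Oligodendrocyte precursor markers (11) went the other way in 3AP, at 277 to 301, 198 to 235 and 222 to 252 CPM, with 3 called lower in 3AP and none higher. Granule cell precursor markers (6) summed to 794 to 844 CPM in control, 714 to 794 in 3AP and 705 to 787 in PLX3AP, with none of the 5 tested called in any comparison. Atoh1, the defining factor of that lineage, was at 0 in every library, so this sum is not read as a level of precursors. The part of these cell types in the levels of Cdc20, Mcm7 and the mitotic sum was not tested.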

How the data were processed

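RNA was measured in 9 bulk libraries of mouse cerebellum (3 control, 3 3AP and 3 PLX3AP), grouped by title and treatment label. The build mm10 and the tools RSEM, StringTie, HISAT2 and fastp are listed in the submitters' processing notes; versions, annotation release and strandedness were not given in the sources used here. Expected counts per gene were deposited without normalisation. TPM values were deposited beside them, already scaled by the authors for length and depth. Unnamed rows (1884, holding 0.526 to 0.660% of counts) were left out.

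Rounded expected counts were tested in R 4.3.3 with edgeR 4.0.16 (filterByExpr with a minimum count of 10, TMM, robust quasi-likelihood fit, 1 term per group, all 9 libraries; biological coefficient of variation 0.126). P-values are two-sided, adjusted by Benjamini-Hochberg over 16634 genes, with calls under 0.05. CPM are TMM-scaled. Intervals on sums of counts cover counting error only. The fit was tested on simulated data. Alternatives were DESeq2 1.42.0 (its median-ratio scaling was also run in edgeR), limma 3.58.1 (voom, and trend on log2 TPM with pseudocounts 0.1 and 1), no filter, 6 libraries, a replicate block and each library left out.

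Genes with a value in every library were those called, plus the 2 of each role with the smallest p, plus called genes of the wider lists. The members and lists were chosen with earlier results of these data known. Promoters are RefSeq windows (GRCm38.p6), and exon overlaps are from GENCODE M21. For Mcm7, which has more than 1 window, the first was used.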

Additional observations from a re-analysis of the deposited data

How the results depend on the processing

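Cdc20 was called higher in 3AP under all 18 alternatives (log2 1.10 to 1.44, adjusted p 1.63e-05 to 0.0202), and Mcm7 under 15, the exceptions being 3 single libraries left out. No called result changed direction, but 31 of the 90 gene and comparison pairs changed sign under at least 1 alternative, none of them called. Cdk1 was called in PLX3AP against 3AP only by the 3 limma fits on TPM, which raised the genes called among the 30 from 0 to 1. In 3AP against control the mitotic median was 0.28 with no filter, 0.17 with log2(TPM + 1) and 0.31 on TPM with no filter, the S-phase median was 0.19 without the G1/S regulators, and TPM with no filter called 416 of all genes in place of 820. In PLX3AP against 3AP the mitotic median was -0.38 with no filter and -0.069 with log2(TPM + 1), and TPM with no filter called 341 in place of 621. In PLX3AP against control all genes called were 20, but 110 by DESeq2, 71 with no filter, 9 with log2(TPM + 1), 5 on TPM with no filter and 10 with the replicate block. There the S-phase median was -0.13 with no filter and 0.083 without the G1/S regulators, and the mitotic median -0.20 with no filter, 0.12 with either pseudocount on TPM and 0.031 with only the 6 libraries compared. The causes of these shifts were not tested.

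With each library left out in turn, all genes called ran from 466 to 991 in 3AP against control, 401 to 715 in PLX3AP against 3AP and 7 to 153 in PLX3AP against control, and the genes called among the 30 from 1 to 3, 0 to 0 and 0 to 0. In the same order the S-phase medians ran from -0.01 to 0.01, -0.16 to -0.030 and -0.07 to -0.03, and the mitotic medians from 0.25 to 0.43, -0.44 to -0.23 and -0.07 to 0.01. Replicate numbers did not pair the samples (9 same-numbered pairs correlated at -0.203 to 0.0931), and no library correlated best with its own number in both other groups. The replicate block called 580, 504 and 10 genes, and 2, 0 and 0 of the 30, and with it Pola2 (adjusted p = 0.0571) and Timeless (0.0725) in 3AP against control and Uhrf1 (0.0785) in PLX3AP against 3AP were not called. Depth limits the mitotic genes, 13 of which had under 30 counts in every library.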
